A study of Mus musculus with 30 samples.

Results

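The genes described here are 10 mRNAs of the NRF2 antioxidant pathway: Nfe2l2 and Keap1, which encode the regulators, and Nqo1, Hmox1, Gclc, Gclm, Slc7a11, Txnrd1, Srxn1 and G6pdx, which encode enzymes and a transporter that NRF2 is known to control. They were taken by gene symbol, with earlier results of these data known, and were found as 10 of the 55450 gene rows of the liver RNA-Seq count table. Genotypes were compared within each of 3 experiments, to ask how these mRNAs differed between livers with and without hepatocyte Cebpa, and across the 6 groups that the experiments form.

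NRF2, the protein of Nfe2l2, is a transcription factor that is kept low by KEAP1, an adaptor that delivers it to a ubiquitin ligase. Oxidants and electrophiles modify KEAP1, so that NRF2 accumulates, pairs with small MAF proteins and binds antioxidant response elements near its target genes. In liver these targets make glutathione, reduce quinones and peroxides, degrade heme and supply NADPH, and much of the control acts on NRF2 protein, which mRNA data do not show.

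All 30 mice were male and were fed HFCFD, a diet rich in fat, cholesterol and fructose, and each group held 5 mice with 1 liver library per mouse. Cebpa fl/fl mice, which carry floxed Cebpa alleles without Cre, were the controls in every experiment. In HFCFD2W, with 2 weeks of HFCFD, the knockout was Cebpa ΔHep, in which an albumin-driven Cre deletes Cebpa constitutively in hepatocytes. In HFCFD8W+T10D, with 8 weeks of HFCFD and 10 days of tamoxifen, and in HFCFD12W+T10W, with 12 weeks of HFCFD before 10 weeks of tamoxifen on the diet (22 weeks in all), the knockout was Cebpa ΔHep,ERT2, in which an albumin-driven Cre is switched on by tamoxifen. The labels give tamoxifen for the fl/fl mice of both inducible experiments too, and no group was fed chow or left without HFCFD. The labels give no ages. The Cre line, the time on diet, tamoxifen and the experiment cannot be told apart in any comparison between experiments.

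The deleted gene was measured first. Cebpa mRNA of the constitutive knockout was 2.68% of the fl/fl level. More was left in the inducible knockouts, 11.9% after 10 days of tamoxifen and 18.6% after 10 weeks, and every knockout mouse lay below every fl/fl mouse of its experiment. The hepatocyte markers, led by Alb, were abundant in all groups, which fits the labelled tissue. Library totals ran from 7996123 to 10257347 counts with a median of 8992014, and 0 libraries were identical.

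The antioxidant response element has a core that was searched for as TGACNNNGC on both strands of RefSeq promoter windows (GRCm38.p6, 250 bases before to 50 bases after a start). The core was present in 4071 of 32851 windows of all genes, or 12.4%. Of the 10 genes, 8 had a window, and these 8 had 10 windows together. The core was held by 5 of the 10 windows, each of a different gene: Nfe2l2, Gclm, Txnrd1, Srxn1 and G6pdx. No window was given for Gclc or Hmox1. The sites are printed because they allow the genes that rose and those that did not to be set side by side, each 5′ to 3′ on the strand of the motif with the core in capitals.
Nfe2l2: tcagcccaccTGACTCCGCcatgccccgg
Gclm: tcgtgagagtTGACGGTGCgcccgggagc
Txnrd1: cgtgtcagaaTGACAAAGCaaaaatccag
Srxn1: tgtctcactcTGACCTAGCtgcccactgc
G6pdx: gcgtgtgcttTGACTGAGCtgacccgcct

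The Nfe2l2 core lay at chr2:75704895-75704903, between 240 and 232 bases before the RefSeq start and inside an exon of the noncoding gene E030042O20Rik in GENCODE M21. The Gclm core lay at chr3:122245423-122245431, between 134 and 126 bases before the start and in no annotated exon. The Txnrd1 core lay at chr10:82859114-82859122, between 92 and 84 bases before one of its 3 RefSeq starts, and it too lay in no exon. The Srxn1 core lay at chr2:152105552-152105560, between 29 and 37 bases after the start and in its 5′ UTR. The G6pdx core lay at chrX:74428929-74428937, between 57 and 49 bases before the RefSeq start and in an exonic UTR of a longer G6pdx transcript. A match describes these letters only and does not show that NRF2 binds there. Nor does a window without a match show that a gene lacks the element, which may lie outside the window or differ in letters.

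The 250 bases before the start of Nqo1 (chr8:107403206-107403455, minus strand, 53.2% GC) and of Gclm (chr3:122245307-122245556, plus strand, 78.4% GC) are printed as those of the gene with the largest fold change of the 9 tested in HFCFD8W+T10D, whose window held no match, and of a gene that was not called in any experiment, whose window did. The core stands in capitals, here as read on the strand of the gene.
Nqo1: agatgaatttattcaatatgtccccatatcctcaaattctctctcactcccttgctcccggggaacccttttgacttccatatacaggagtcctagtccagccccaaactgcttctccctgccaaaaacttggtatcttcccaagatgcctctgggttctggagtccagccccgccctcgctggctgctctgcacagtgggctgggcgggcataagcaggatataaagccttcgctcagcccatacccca
Gclm: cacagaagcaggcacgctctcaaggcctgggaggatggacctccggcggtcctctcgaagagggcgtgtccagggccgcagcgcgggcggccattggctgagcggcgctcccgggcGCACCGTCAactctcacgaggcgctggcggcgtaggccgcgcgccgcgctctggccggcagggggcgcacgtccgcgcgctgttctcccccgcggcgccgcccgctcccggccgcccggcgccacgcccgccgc

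Nfe2l2, Nqo1, Srxn1 and G6pdx rose in the knockout livers of both inducible experiments, while in HFCFD2W Nfe2l2 fell and none of the 10 genes rose. Of the 9 genes with enough counts to be tested, 4 were higher and 0 lower in HFCFD8W+T10D, where 10.3% of all 11990 genes tested were higher and 6.85% were lower. In HFCFD12W+T10W 4 of 9 were higher and 0 lower, against 27.4% higher and 23.8% lower of 12463 genes. In HFCFD2W 0 of 9 were higher and 1 was lower, against 8.60% and 8.09% of 11068 genes, and at an unadjusted p under 0.05 1 gene (Txnrd1) was higher and 2 (Nfe2l2 and Srxn1) were lower. In the inducible experiments 0 genes were lower at an unadjusted p under 0.05, and DESeq2 and limma each called 1 lower in HFCFD12W+T10W (Gclm). Calls are adjusted p-values under 0.05 from the quasi-likelihood test of edgeR, adjusted by the Benjamini-Hochberg method across the genes tested in that experiment. The median log2 fold change of the 9 genes was -0.12 after 2 weeks of HFCFD in Cebpa ΔHep livers, 0.56 in the HFCFD8W+T10D experiment and 0.42 in HFCFD12W+T10W, and that of all genes was 0.01 each time. In these bulk livers, fewer cells of a type and less RNA per cell cannot be told apart.

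**Figure D1:**
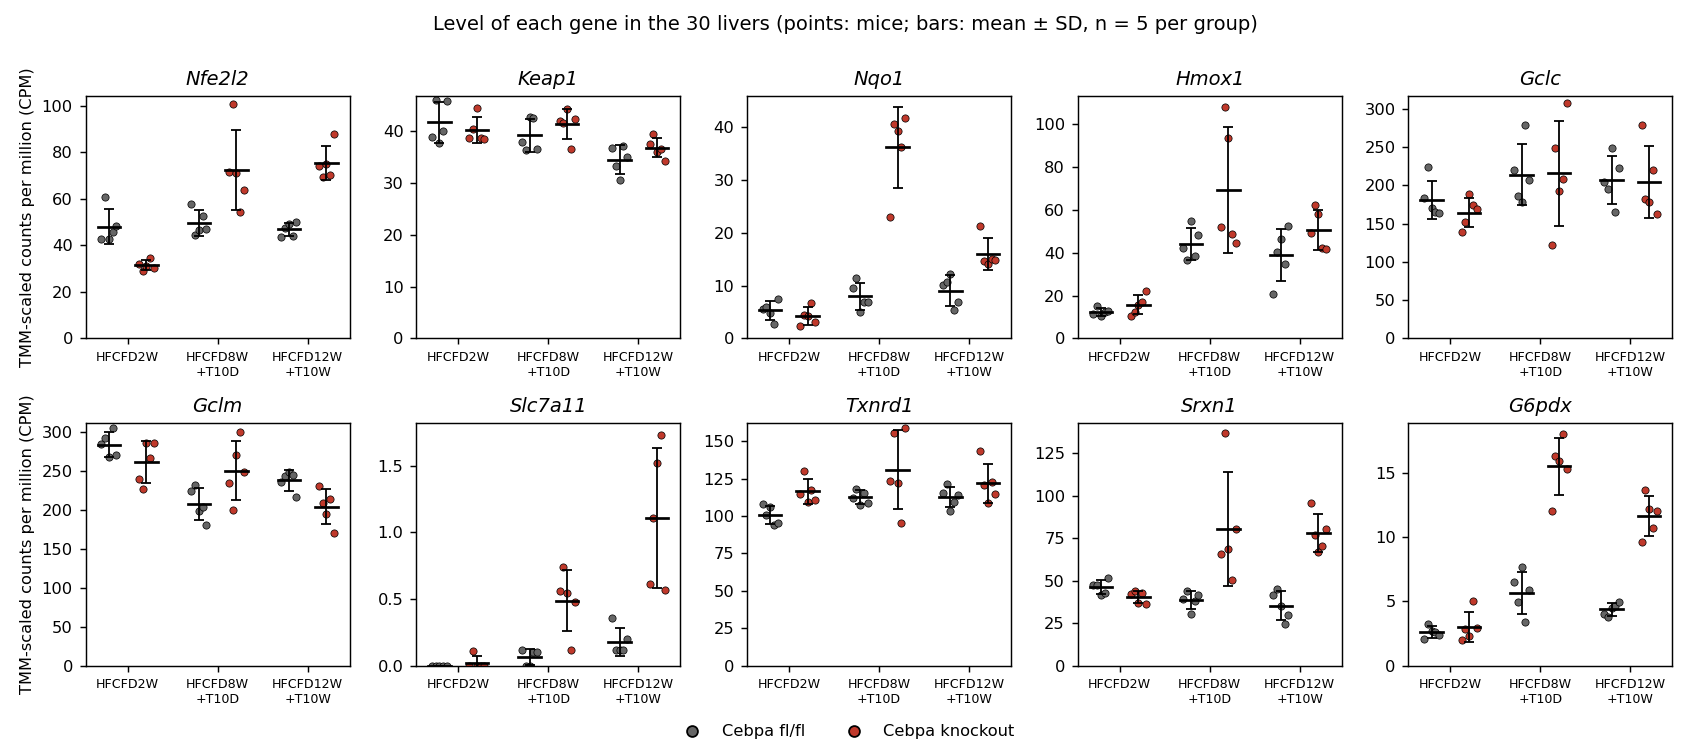
Level of the 10 mRNAs in each mouse, as TMM-scaled CPM (vertical axes, linear, a scale of its own per gene), by experiment and genotype; points are mice and bars the mean ± SD of 5 mice. Nqo1, Srxn1 and G6pdx of both inducible knockout groups lie above their fl/fl groups, while Keap1, Gclc and Gclm overlap between genotypes in all 3 experiments.

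Nfe2l2 (chr2:75675513-75704641, minus strand), which encodes NRF2 itself, was the only one of the genes called in all 3 experiments, and it changed direction between them. In HFCFD2W it stood at 42.6, 60.9, 42.7, 45.9 and 48.4 CPM (counts scaled to a common library total that is adjusted by TMM, the trimmed mean of M values) in fl/fl mice and at 32.1, 28.8, 31.2, 34.5 and 30.5 in Cebpa ΔHep mice, so that every knockout mouse lay below every fl/fl mouse. The log2 fold change was -0.61 (SE 0.10, n = 5 per genotype, adjusted p = 0.00127 in edgeR). In HFCFD8W+T10D it stood at 57.7, 44.2, 46.6, 52.7 and 46.8 CPM in fl/fl and at 71.6, 101, 71.3, 54.3 and 63.8 CPM in knockout mice. One knockout mouse, at 54.3, fell within the fl/fl range. The log2 fold change was 0.56 (SE 0.15, edgeR adjusted p = 0.0228), and the call was lost without fl/fl replicate 2 (adjusted p = 0.0541 in edgeR) or without fl/fl replicate 5 (adjusted p = 0.0515). In HFCFD12W+T10W the 5 fl/fl mice stood at 43.6, 47.6, 49.2, 43.9 and 49.9 CPM and the 5 knockout mice at 74.1, 69.5, 74.7, 70.3 and 87.7 CPM, with no overlap. The log2 fold change there was 0.73 (SE 0.08, edgeR adjusted p = 8.7e-06).

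Keap1 (chr9:21229730-21239361, minus strand), whose protein holds NRF2 low, was not called in any experiment. Its levels lay between 30.4 and 45.9 CPM in all 30 mice. The log2 fold changes were -0.05, 0.09 and 0.13 in the order of the experiments, and the widest 95% interval, in HFCFD8W+T10D, ran from -0.11 to 0.29. The genotypes thus overlapped in each experiment. An antisense transcript, Gm16754, overlaps Keap1, and the libraries kept strand.

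Nqo1 (chr8:107388225-107403206, minus strand), a quinone reductase long used as a readout of NRF2, had the largest fold change of the 9 tested genes in HFCFD8W+T10D. In HFCFD12W+T10W G6pdx and Srxn1 changed more, and in HFCFD2W Nfe2l2 and, by a little, Hmox1 did. Nqo1 stood in HFCFD8W+T10D at 9.62, 11.4, 4.98, 6.91 and 6.89 CPM in fl/fl mice and at 23.04, 40.7, 39.3, 36.2 and 41.7 CPM in knockout mice. Every knockout mouse lay far above every fl/fl mouse. The log2 fold change was 2.21 (SE 0.22, edgeR adjusted p = 4.38e-05), a 4.62-fold rise. In HFCFD12W+T10W the fl/fl mice stood at 10.2, 10.7, 12.3, 5.40 and 6.87 CPM and the knockout mice at 21.3, 14.7, 14.1, 15.1 and 14.9 CPM. The genotypes again did not overlap, but the rise was 1.82-fold (log2 fold change 0.86, SE 0.20, edgeR adjusted p = 0.00281). In HFCFD2W the fl/fl mice ranged from 2.76 to 7.52 CPM and the knockout mice from 2.37 to 6.77 CPM, a log2 fold change of -0.33 that did not pass (SE 0.29, edgeR adjusted p = 0.474, 95% interval -0.97 to 0.30).

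Hmox1 (chr8:75093621-75100589, plus strand), which encodes the inducible heme oxygenase that degrades heme, was not called between genotypes in any experiment, with log2 fold changes of 0.34, 0.68 and 0.42. In HFCFD8W+T10D the fl/fl mice stood at 42.2, 36.5, 54.8, 38.4 and 48.1 CPM and the knockout mice at 52.1, 108, 93.6, 48.6 and 44.5 CPM. Replicates 2 and 3 of the knockout group stood far above the other 3, which overlapped the fl/fl range, and the adjusted p was 0.0741 in edgeR (95% interval of the log2 fold change 0.152 to 1.199). It passed without knockout replicate 4 (edgeR adjusted p = 0.0399) or 5 (edgeR adjusted p = 0.0313). In HFCFD12W+T10W the genotypes overlapped, with 20.6 to 52.6 CPM in fl/fl and 41.5 to 62.4 CPM in knockout mice (edgeR adjusted p = 0.108, or 0.0443 without fl/fl replicate 5). Hmox1 is also expressed by macrophages, whose markers are given below.

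Neither subunit gene of glutamate-cysteine ligase was called between genotypes in any experiment. Gclc (chr9:77754535-77794485, plus strand), the catalytic subunit of this rate-limiting enzyme of glutathione synthesis, overlapped between genotypes in all 3 experiments, with log2 fold changes of -0.14, 0.02 and 0.02 and edgeR adjusted p-values of 0.392, 0.951 and 0.912. It varied among mice, from 122 to 307 CPM in the knockout mice of HFCFD8W+T10D, and the 95% interval there ran from -0.43 to 0.48. Gclm (chr3:122245557-122270732, plus strand), the modifier subunit of the same enzyme, had log2 fold changes of -0.12, 0.28 and -0.18 with edgeR adjusted p-values of 0.335, 0.135 and 0.102. Its expected counts were not whole numbers in 27 of 30 libraries, since reads were shared between rows, and the transcribed pseudogene Gm6061 overlaps it on the same strand. The counts of the other 9 genes were whole in all 30 libraries.

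Slc7a11 (chr3:49892526-50443614, minus strand), the cystine transporter subunit that feeds glutathione synthesis, was near or at the limit of detection and was removed by the filter on low counts in each experiment. In HFCFD2W it had 0 counts in the 5 fl/fl libraries together and 1 count in the 5 knockout libraries. In HFCFD8W+T10D fl/fl mice had 1, 0, 0, 1 and 1 counts and knockout mice had 6, 9, 5, 1 and 5 counts. In HFCFD12W+T10W fl/fl mice had 3, 1, 1, 1 and 2 counts and knockout mice had 7, 12, 18, 19 and 7 counts, with every knockout mouse above every fl/fl mouse. Against a floor of 3 counts in each fl/fl library, the mean knockout level of 1.11 CPM was at least 3.28-fold higher in HFCFD12W+T10W. With no filter on low counts, the edgeR adjusted p was 0.0217 in HFCFD8W+T10D and 0.000673 in HFCFD12W+T10W.

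Of the genes that act on thioredoxin and peroxiredoxin, Srxn1 rose and Txnrd1 did not pass. Srxn1 (chr2:152105516-152111376, plus strand) encodes sulfiredoxin, which repairs overoxidized peroxiredoxins. In HFCFD8W+T10D it stood at 39.3, 43.7, 30.5, 38.2 and 41.5 CPM in fl/fl mice and at 65.7, 137, 68.7, 50.4 and 80.3 CPM in knockout mice, all above. The log2 fold change was 1.08 (SE 0.22, edgeR adjusted p = 0.00682), and 0.79 without knockout replicate 2, the mouse at 137 CPM. In HFCFD12W+T10W the fl/fl mice stood at 41.7, 45.1, 35.3, 24.7 and 29.9 CPM and the knockout mice at 95.8, 76.7, 67.1, 70.6 and 80.6 CPM. The groups did not overlap, and the log2 fold change was 1.19 (SE 0.15, edgeR adjusted p = 3.38e-05). In HFCFD2W the log2 fold change was -0.18 (edgeR adjusted p = 0.152).

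Txnrd1 (chr10:82833951-82897712, plus strand) encodes the cytosolic thioredoxin reductase. In HFCFD2W its 5 knockout mice, at 110 to 130 CPM, all lay above its 5 fl/fl mice, at 94.2 to 108 CPM, and the log2 fold change of 0.21 had an edgeR adjusted p of 0.0591. Of all genes in that experiment, 6.33% had every knockout mouse above every fl/fl mouse and 6.13% every knockout mouse below, as Nfe2l2 had. In the inducible experiments the log2 fold changes of Txnrd1 were 0.24 and 0.15, with overlap and edgeR adjusted p-values of 0.245 and 0.127. Every knockout mouse lay above every fl/fl mouse for 3 tested genes in HFCFD8W+T10D (Nqo1, Srxn1 and G6pdx; 6.01% of all genes) and for 4 in HFCFD12W+T10W (those and Nfe2l2; 19.6%).

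G6pdx (chrX:74409483-74429194, minus strand) encodes the first enzyme of the pentose phosphate pathway, which supplies NADPH to both the glutathione and the thioredoxin systems. In HFCFD8W+T10D it stood at 6.49, 4.92, 7.65, 3.35 and 5.90 CPM in fl/fl mice and at 11.99, 16.3, 15.9, 18.03 and 15.3 CPM in knockout mice. In HFCFD12W+T10W it stood at 4.04, 3.74, 4.48, 4.59 and 4.95 CPM in fl/fl mice and at 9.59, 13.7, 12.2, 10.7 and 11.98 CPM in knockout mice. The genotypes did not overlap in either experiment. The log2 fold changes were 1.47 (SE 0.19, edgeR adjusted p = 0.000343) and 1.45 (SE 0.13, edgeR adjusted p = 2.25e-06). In HFCFD2W the change was 0.20 (edgeR adjusted p = 0.634). G6pdx has a near-identical copy, G6pd2, whose mean was at most 0.03 CPM in any group, and Ikbkg overlaps it on the opposite strand.

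**Figure D2:**
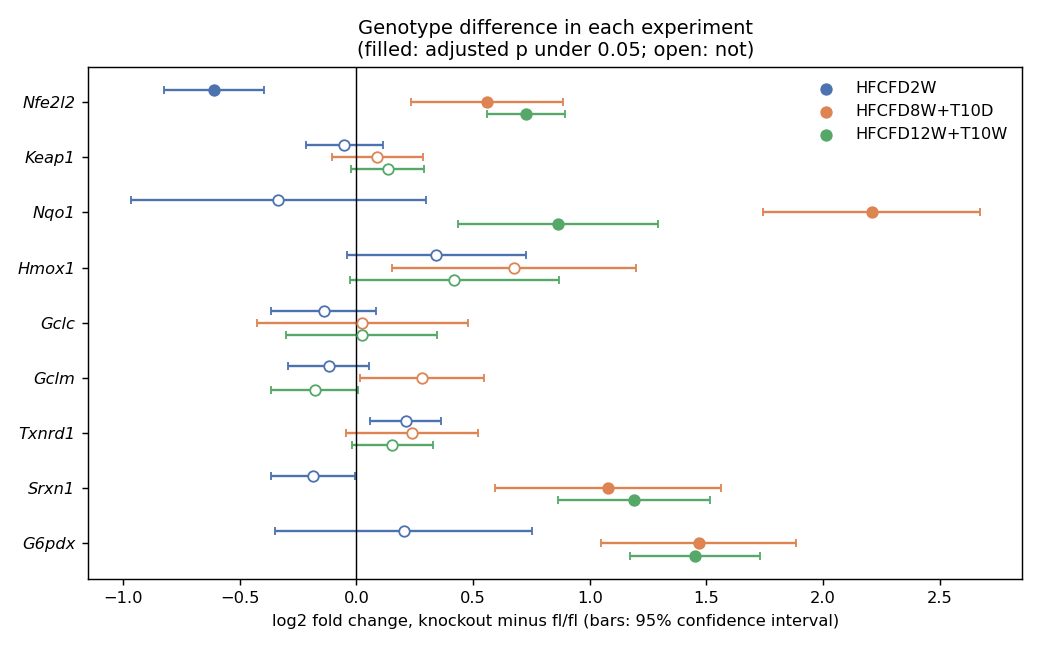
Log2 fold change of the 9 tested mRNAs, knockout minus fl/fl (horizontal axis), in the 3 experiments; points are edgeR estimates from 5 mice per genotype, bars their 95% confidence intervals, and filled points have an adjusted p under 0.05. Nfe2l2 lies at -0.61 in HFCFD2W and at 0.56 and 0.73 in the inducible experiments, and Nqo1 at 2.21 and 0.86 in the latter.

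Of the 9 tested genes, 3 (Nqo1, Srxn1 and G6pdx) were also over 2-fold higher in HFCFD8W+T10D, against 4.09% of all genes, and 2 (Srxn1 and G6pdx) in HFCFD12W+T10W, against 14.3%. How many of the 9 genes were called depended on how libraries were scaled, while Nfe2l2, Nqo1, Srxn1 and G6pdx kept their calls in both inducible experiments. Scaling to library totals without TMM moved the median of all genes in knockout livers up by 0.18 (log2) in HFCFD8W+T10D and by 0.37 in HFCFD12W+T10W, and by 0.02 in HFCFD2W. On that scale 6 of 9 genes were higher in HFCFD8W+T10D, with Hmox1 and Gclm added, and 9 of 9 in HFCFD12W+T10W, where Gclm turned from -0.18 to 0.19. Relative to the shift of all genes, the log2 fold changes were 0.73 for Nfe2l2, 0.86 for Nqo1, 1.19 for Srxn1 and 1.45 for G6pdx in HFCFD12W+T10W.

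The genotype effects differed between experiments for 5 of the genes. In 1 fit of all 30 libraries, the effect was larger in HFCFD8W+T10D than in HFCFD2W for 4 of 9 genes and smaller for 0, against 4.45% and 6.79% of 12964 genes. These were Nqo1 (difference of log2 fold changes 2.53, edgeR adjusted p = 5.37e-05), G6pdx (1.25, adjusted p = 0.00521), Srxn1 (1.25, adjusted p = 0.00167) and Nfe2l2 (1.16, adjusted p = 3.75e-05). For the same 4 genes the effect was larger in HFCFD12W+T10W than in HFCFD2W, against 13.4% of all genes, by 1.16 for Nqo1 (edgeR adjusted p = 0.0201), 1.21 for G6pdx (adjusted p = 0.00258), 1.33 for Srxn1 (adjusted p = 0.000277) and 1.298 for Nfe2l2 (adjusted p = 2.82e-06). Both sets of differences share the mice of HFCFD2W.

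Between the inducible experiments, the effects on Nqo1 and Gclm were smaller in HFCFD12W+T10W, and 0 were larger, against 5.49% and 4.97% of all genes. For Nqo1 the difference was -1.37 (edgeR adjusted p = 0.00916), and every HFCFD8W+T10D knockout mouse lay above every HFCFD12W+T10W knockout mouse. For Gclm it was -0.49 (edgeR adjusted p = 0.0218), a call lost under both other scalings tried and in 7 of 20 fits that left out 1 mouse, with adjusted p-values of up to 0.0701 in edgeR. Those mice were fl/fl replicates 3 and 5 and knockout replicates 3 and 4 of HFCFD8W+T10D, and fl/fl replicates 2 and 3 and knockout replicate 5 of HFCFD12W+T10W. Without fl/fl replicate 5 of HFCFD2W, the difference for Nqo1 between HFCFD12W+T10W and HFCFD2W had an adjusted p of 0.0544 in edgeR.

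Per transcript length, the authors' TPM values ordered the 10 mRNAs in fl/fl livers. Gclm was the most abundant, at mean TPM of 118, 131 and 156 in the 3 experiments, followed by Gclc at 51.5, 72.8 and 77.1, so both subunits of the enzyme of glutathione synthesis led. Txnrd1 stood at 29.9, 39.7 and 44.3 TPM, Nfe2l2 at 20.1, 24.3 and 25.7 and Srxn1 at 16.9, 16.1 and 16.8. Keap1 stood at 13.01, 14.3 and 13.8 TPM and Hmox1 at 8.38, 35.7 and 34.8. Nqo1 stood at 3.66, 6.31 and 8.15 TPM, G6pdx at 1.26, 2.60 and 2.34, and Slc7a11 at 0, 0.014 and 0.054. Nqo1, G6pdx and Slc7a11 were thus the least abundant of the 10 mRNAs in these livers. TPM values are not adjusted by TMM.

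Among fl/fl livers, Hmox1 and G6pdx were higher and Gclm was lower in HFCFD8W+T10D than in HFCFD2W, where 22.2% of all genes were higher and 21.5% lower. Hmox1 rose from a mean of 12.4 ± 1.67 CPM (SD, n = 5) to 44.0 ± 7.50 CPM, with a difference of 1.83 in log2 (edgeR adjusted p = 1.51e-06). G6pdx rose from 2.61 ± 0.435 CPM to 5.66 ± 1.63 CPM, a difference of 1.11 (edgeR adjusted p = 0.000116). Gclm fell from 284 ± 15.4 CPM to 208 ± 20.5 CPM, a difference of -0.45 (edgeR adjusted p = 0.000495). Between the fl/fl livers of HFCFD12W+T10W and HFCFD8W+T10D, 0 of 9 genes were called in edgeR, against 6.31% higher and 5.12% lower of all genes. At an unadjusted p under 0.05 there was 1, Keap1 (adjusted p = 0.108 in edgeR), DESeq2 called 0, and scaling to library totals called 1 gene higher.

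In the order of the 6 group means, Nqo1 was lowest in HFCFD2W knockout livers at 4.21 ± 1.68 CPM, followed by the fl/fl livers of HFCFD2W, HFCFD8W+T10D and HFCFD12W+T10W at 5.33 ± 1.74, 7.96 ± 2.53 and 9.08 ± 2.85 CPM. These 4 neighbouring groups overlapped. HFCFD12W+T10W knockout livers at 16.02 ± 2.96 CPM and HFCFD8W+T10D knockout livers at 36.2 ± 7.64 CPM stood apart from them and from each other. For G6pdx both inducible knockout groups overlapped each other and stood apart from the other 4 groups, each of which overlapped the next. For Srxn1 they overlapped each other too, and the HFCFD12W+T10W knockout livers stood apart from the other 4 groups, but 1 knockout mouse of HFCFD8W+T10D, at 50.4 CPM, lay below 1 fl/fl mouse of HFCFD2W, at 51.5 CPM. For Nfe2l2 the HFCFD2W knockout livers stood alone below all others, and the other 5 groups overlapped their neighbours. For Keap1, Gclc, Gclm, Txnrd1, Hmox1 and Slc7a11 each group overlapped the next.

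Of 12104 genes, those whose pattern lay nearest to that of Nqo1 over the 30 libraries were Gstm2, a glutathione S-transferase, at a root mean square difference of 0.53 in centred log2 CPM, G6pdx at 0.54 and Tm6sf1 at 0.57, where the SD of Nqo1 itself was 1.11. Those nearest to Hmox1 were Adgre5 at 0.29, Treml4 at 0.32 and Itgal at 0.33, with an SD of 0.95 for Hmox1. Adgre5 and Itgal are genes of leukocytes. These are descriptions over libraries that share group and scaling.

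Beyond the 10 genes, a list of 61 further pathway genes was read by role. In HFCFD8W+T10D 24 of 58 tested genes were higher and 1 was lower, with a median log2 fold change of 0.45, where 10.3% of all genes were higher and 6.85% lower. In HFCFD12W+T10W 24 of 59 were higher and 12 lower, with a median of 0.22, against 27.4% and 23.8% of all genes. In HFCFD2W 8 of 56 were higher and 5 lower, with a median of 0.00, against 8.60% and 8.09% of all genes, so that the lower count was near the share of all genes. Over 2-fold higher were 12, 12 and 5 genes in that order, against 4.09%, 14.3% and 1.69% of all genes. The lower counts moved with the fit and the scaling, to 5 in HFCFD8W+T10D in the fit of all 30 libraries and to 6 in HFCFD12W+T10W, beside 38 higher, with library totals.

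Enzymes that use or make glutathione held 6 of the 8 higher calls in HFCFD2W and 11 of the 24 in each inducible experiment. Of those tested, 6 of 16 were higher in Cebpa ΔHep livers, and 11 of 16 and 11 of 17 in the Cebpa ΔHep,ERT2 livers of the 10-day and 10-week tamoxifen experiments, and 1, 1 and 2 were lower. Of all genes, 8.60%, 10.3% and 27.4% were higher and 8.09%, 6.85% and 23.8% lower in that order. The lower counts were near those shares in HFCFD2W and HFCFD8W+T10D and under the share in HFCFD12W+T10W. Gstm3, a mu-class glutathione S-transferase, rose in every experiment, from 34.8 to 131 CPM in HFCFD2W (log2 fold change 1.91, SE 0.23, edgeR adjusted p = 0.000148), from 57.0 to 1069 CPM in HFCFD8W+T10D (4.24, SE 0.43, adjusted p = 5.43e-05) and from 76.8 to 885 CPM in HFCFD12W+T10W (3.57, SE 0.33, adjusted p = 3.18e-06). Gstm1 rose from 908 to 1631 CPM in HFCFD2W and from 1075 to 5866 CPM in HFCFD8W+T10D. In HFCFD8W+T10D Gstm2 rose by 2.17, Gstm4 by 2.07 and the microsomal enzyme Mgst3 by 1.14 in log2. The alpha-class genes Gsta2 and Gsta4 rose by 1.97 and 0.65 in HFCFD2W, and Gsta1 by 2.96 in HFCFD12W+T10W. Against these, Mgst1, a microsomal glutathione S-transferase, fell in every experiment, from 3596 to 1911 CPM in HFCFD2W (log2 fold change -0.91, edgeR adjusted p = 3.04e-05), from 4133 to 2113 CPM in HFCFD8W+T10D (-0.95, adjusted p = 0.00644) and from 3198 to 1429 CPM in HFCFD12W+T10W (-1.12, adjusted p = 1.13e-06). The other lower gene was Gsta3, which fell by 0.31 in HFCFD12W+T10W and was named after its values were seen. The transferases form a multigene family whose reads can be split between copies, so the values of single genes are uncertain. Gpx2, an epithelial glutathione peroxidase, is named for its place at the far right of the plot by role, after its values were seen: it went from 0.02 to 1.505 CPM in HFCFD12W+T10W.

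**Figure D3:**
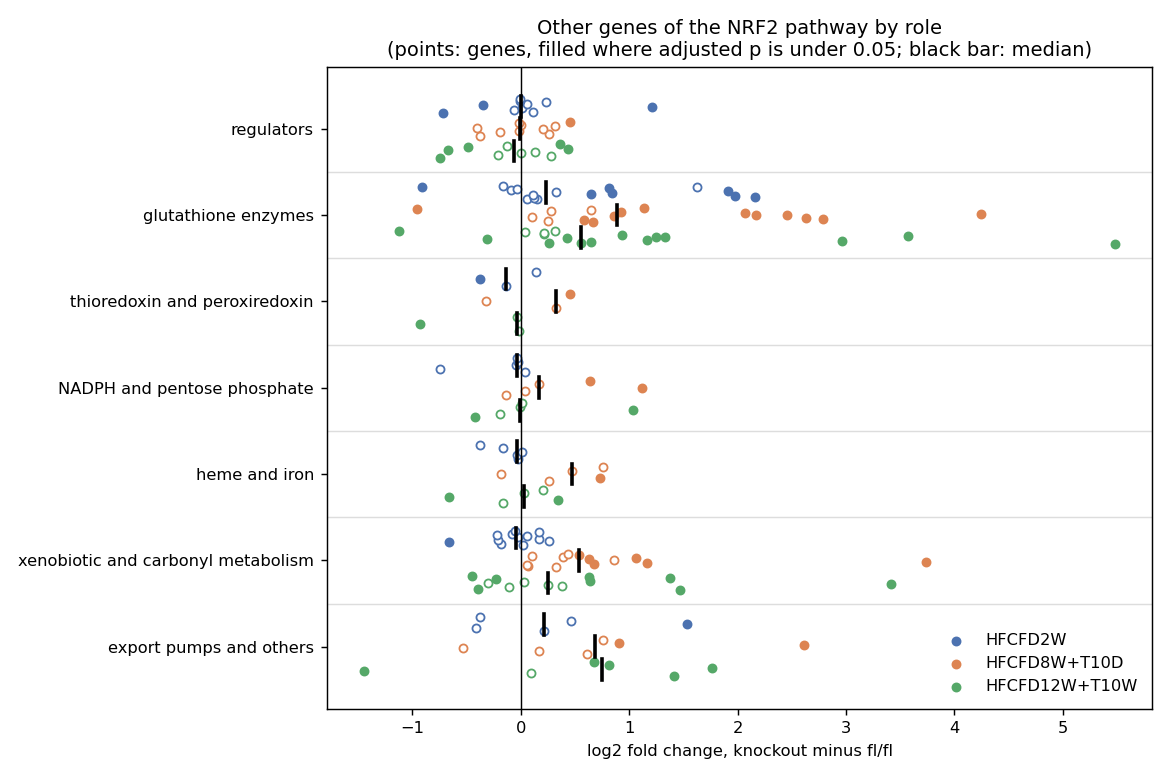
Log2 fold change, knockout minus fl/fl (horizontal axis), of the tested genes among 61 further pathway genes, by role (rows) and experiment (colours); points are genes, filled where the adjusted p is under 0.05, and black bars are medians. The medians of the glutathione enzymes are 0.24, 0.89 and 0.55 and those of the regulators 0.00, 0.00 and -0.06 in HFCFD2W, HFCFD8W+T10D and HFCFD12W+T10W.

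The enzymes of xenobiotic and carbonyl metabolism had 0 of 12, 6 of 13 and 5 of 13 genes higher in HFCFD2W, HFCFD8W+T10D and HFCFD12W+T10W, and 1, 0 and 3 lower. In that order 8.60%, 10.3% and 27.4% of all genes were higher and 8.09%, 6.85% and 23.8% lower. The lower counts were near those shares in HFCFD2W and HFCFD12W+T10W. Cbr3, a carbonyl reductase, rose from 1.00 to 13.3 CPM in HFCFD8W+T10D (log2 fold change 3.73, edgeR adjusted p = 6.38e-05) and from 0.752 to 8.01 CPM in HFCFD12W+T10W (3.42, adjusted p = 1.02e-06). Its relative Cbr1 rose by 1.17 in HFCFD8W+T10D, and Akr1b8 and Ptgr1, which reduce aldehydes and unsaturated ketones, rose by 1.47 and 1.38 in HFCFD12W+T10W. Aldh3a2, a fatty aldehyde dehydrogenase, fell by 0.66 in HFCFD2W. Of the export pumps, Abcc4 rose in all 3 experiments, by 1.53, 2.61 and 1.76 in log2. In HFCFD12W+T10W Abcc1 rose by 1.41 and Abcc3 fell by 1.44.

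The regulators among the 61 genes, which include the partners, repressors and ubiquitin ligase subunits of NRF2, had 1, 1 and 2 of 10 genes higher and 2, 0 and 3 lower in HFCFD2W, HFCFD8W+T10D and HFCFD12W+T10W. Of all genes, 8.60%, 10.3% and 27.4% were higher and 8.09%, 6.85% and 23.8% lower, so that these counts were near the shares of all genes in HFCFD8W+T10D and HFCFD12W+T10W. Bach1 and Mafg were named after their values were seen, as a repressor and a small MAF partner of the same binding sites. They were picked from regulators that fell, and others went the other way, with 1 over 2-fold higher in HFCFD2W. The highest log2 fold changes of the 10 regulators were 1.21, 0.45 and 0.44 in HFCFD2W, HFCFD8W+T10D and HFCFD12W+T10W. Bach1 fell in HFCFD2W from 44.0 to 26.8 CPM (log2 fold change -0.72, edgeR adjusted p = 0.0125) and in HFCFD12W+T10W from 45.3 to 26.2 CPM (-0.74, adjusted p = 1.8e-05). Mafg fell in the same experiments by 0.35 and 0.67. In HFCFD8W+T10D the log2 fold changes were -0.38 for Bach1 (edgeR adjusted p = 0.111) and -0.40 for Mafg (adjusted p = 0.0771), which did not pass, and the differences of the genotype effects between the experiments did not pass for either gene. The thioredoxin and peroxiredoxin genes had 1 of 3 higher in HFCFD8W+T10D, and 1 of 3 lower in HFCFD2W, where Prdx6 fell by 0.37, and in HFCFD12W+T10W. Beside them stand 10.3% of all genes higher in HFCFD8W+T10D, and 8.09% and 23.8% lower in HFCFD2W and HFCFD12W+T10W.

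The heme and iron genes had 1 of 5 higher in each inducible experiment and 1 lower in HFCFD12W+T10W. The NADPH and pentose phosphate genes had 2 of 5 higher in HFCFD8W+T10D, and 1 higher and 1 lower in HFCFD12W+T10W. Of all genes, 10.3% were higher in HFCFD8W+T10D, and 27.4% were higher and 23.8% lower in HFCFD12W+T10W. The counts of both roles in HFCFD12W+T10W were thus near the shares of all genes. Pgd, which encodes the next NADPH-forming enzyme after the product of G6pdx and was also named after its values were seen, rose from 34.3 to 73.7 CPM in HFCFD8W+T10D (log2 fold change 1.12, SE 0.12) and from 26.2 to 52.1 CPM in HFCFD12W+T10W (1.04, SE 0.07), with no overlap in either. In the fit of all 30 libraries, the genotype effect on 20 of 59 pathway genes was larger in HFCFD8W+T10D than in HFCFD2W and on 0 smaller, against 4.45% and 6.79% of all genes. On 12 it was smaller in HFCFD12W+T10W than in HFCFD8W+T10D and on 1 larger, against 5.49% and 4.97%.

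Markers of other liver cells moved with genotype in the same livers. The summed level of 8 macrophage markers, led by Clec4f, ran from 123 to 164 CPM in fl/fl and from 150 to 248 CPM in knockout mice of HFCFD2W. In HFCFD8W+T10D it ran from 419 to 705 and from 656 to 1383 CPM, and in HFCFD12W+T10W from 216 to 669 and from 653 to 767 CPM. Higher were 3 of 7, 6 of 8 and 5 of 8 tested markers, and 2 were lower in HFCFD12W+T10W. Of all genes, 8.60%, 10.3% and 27.4% were higher in that order, and 23.8% were lower in HFCFD12W+T10W. The 2 lower markers were Timd4 and Marco, with log2 fold changes of -2.72 and -2.35, so the list did not move together there. The fl/fl sums were thus higher in the experiments in which Hmox1 was higher in fl/fl livers. Knockout replicate 2 of HFCFD8W+T10D, the mouse with the highest macrophage sum of 1383 CPM, was also the highest of its group for Nfe2l2, Hmox1 and Srxn1.

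Of the 5 cholangiocyte markers, Epcam was the most abundant over all 30 libraries. In the fl/fl livers of HFCFD8W+T10D Krt19 led instead, at a mean of 3.79 CPM against 0.488 for Epcam. The sum of the list ran from 3.56 to 12.8 and from 9.50 to 13.8 CPM in fl/fl and knockout mice of HFCFD8W+T10D. In HFCFD12W+T10W it ran from 3.22 to 5.17 and from 34.8 to 61.3 CPM. Higher were 2 of 4 tested markers in HFCFD8W+T10D, Epcam by 5.95-fold (edgeR adjusted p = 0.000231) and Sox9 by 1.996-fold (adjusted p = 0.0451), and 5 of 5 in HFCFD12W+T10W. The other tested markers of HFCFD8W+T10D, Krt19 at 0.70-fold and Krt7 at 0.88-fold, went the other way. Neither passed (edgeR adjusted p = 0.417 and 0.782), so the list did not move together there. The 6 stellate cell markers, led by Dcn, ran from 268 to 322 and from 590 to 730 CPM in HFCFD12W+T10W, with 6 of 6 higher, and 1 of 6 was higher in HFCFD8W+T10D. The hepatocyte sum ran from 101996 to 125184 CPM in fl/fl and from 51161 to 101891 CPM in knockout mice of HFCFD8W+T10D. In HFCFD12W+T10W it ran from 84537 to 107193 and from 45618 to 52239 CPM. The genotypes did not overlap in either, with 3 of 6 markers lower and 0 higher in each inducible experiment. Beside the counts of these 3 lists stand 10.3% of all genes higher and 6.85% lower in HFCFD8W+T10D. In HFCFD12W+T10W 27.4% were higher and 23.8% lower. In HFCFD2W the sums of these last 3 lists overlapped between genotypes, at 101573 to 130004 and 106545 to 154882 CPM for the hepatocyte list. Of the lists, Cftr of the cholangiocytes was at or under 3 counts in every fl/fl library, as was Trem2 of the macrophages in HFCFD2W. The part of these cells in the results for the 10 genes was not tested.

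**Figure D4:**
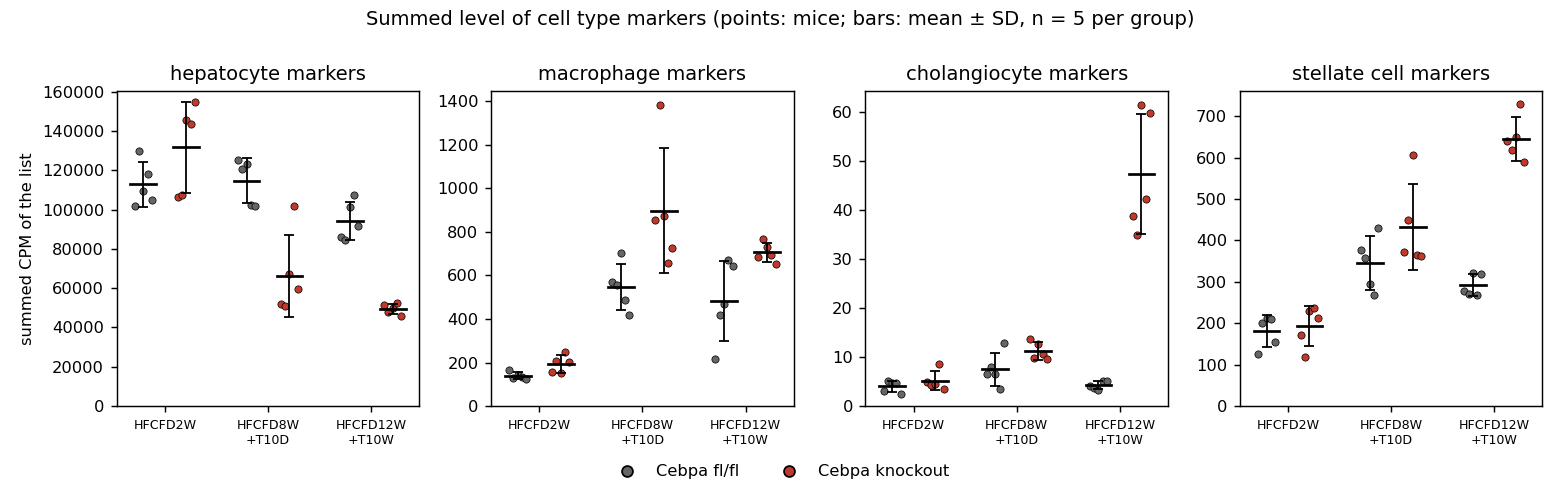
Summed CPM of 4 lists of cell type markers (vertical axes, linear from 0, a scale of its own per list) in each mouse, by experiment and genotype; points are mice and bars the mean ± SD of 5 mice. Hepatocyte sums of HFCFD12W+T10W knockout mice lie between 45618 and 52239, below all fl/fl mice, and their cholangiocyte sums between 34.8 and 61.3, above all fl/fl mice.

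Of 5 endothelial markers, led by Stab2, 0, 1 and 2 were lower in HFCFD2W, HFCFD8W+T10D and HFCFD12W+T10W and 0 were higher. Beside these counts and those of the next lists stand, in that order, 8.09%, 6.85% and 23.8% of all genes lower. Higher were 8.60%, 10.3% and 27.4% of all genes. The 5 lymphocyte markers, led by Cd79a, summed to at most 6.57 CPM in any mouse. In HFCFD12W+T10W their sum ran from 0.227 to 2.53 CPM in fl/fl and from 3.23 to 6.57 CPM in knockout mice, with no overlap. Low counts left 0 of the 5 to be tested there. Of the 4 neutrophil markers, led by S100a9, 0 could be tested in HFCFD2W. Their sum there ran from 0.568 to 1.63 CPM in fl/fl and from 1.75 to 2.70 CPM in knockout mice, without overlap. In HFCFD8W+T10D 1 of 3 tested was higher, Csf3r. S100a8 and S100a9 had log2 fold changes of -0.20 and -0.06 there, which did not pass. In HFCFD12W+T10W 3 of 3 were higher. The sum ran from 3.51 to 8.04 CPM in fl/fl and from 12.99 to 70.9 CPM in knockout mice, with no overlap. The 4 erythroid markers, led by Hbb-bs, summed to 212 to 376 CPM in fl/fl and to 243 to 1324 CPM in knockout mice of HFCFD8W+T10D. Of the 3 tested there, Hbb-bs was 2.39-fold higher (edgeR adjusted p = 0.0306) and Hba-a1 2.71-fold higher (adjusted p = 0.0159). The third, Alas2, went the other way, at 0.49-fold, and did not pass (edgeR adjusted p = 0.0505). In HFCFD2W 1 was lower, and in HFCFD12W+T10W 1 was higher and 1 lower. The lower marker was Alas2 in both, with log2 fold changes of -1.14 and -1.22. The mouse at 1324 CPM, knockout replicate 3 of HFCFD8W+T10D, was the second highest of its group for Hmox1. The part of these cells, too, was not tested.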

How the data were processed

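Liver poly(A) RNA of 30 mice was sequenced from stranded libraries. The authors deposited expected counts per gene from RSEM 1.2.22 without normalization, and the submitters' notes also name Trimmomatic 0.36, STAR 2.5.1, Picard 1.84 and the mm10 build. The gene rows match GENCODE M21 (GRCm38). The authors also deposited TPM values, used here only for levels between genes, and TMM-normalized values on the scale of a signal, used for 1 alternative. A table of RPKM values was not used. RSEM splits reads that fit several genes, which left 3.25% of the values with decimals.

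Expected counts were rounded. With R 4.3.3 and edgeR 4.0.16, low counts were removed by filterByExpr, libraries were scaled by TMM, and a quasi-likelihood F test compared the genotypes of 1 experiment at a time. P-values were adjusted by Benjamini-Hochberg over all genes tested. Differences between experiments were contrasts in 1 fit of the 6 groups, from which CPM per mouse come. Replicates are mice, per the labels.

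The members and the gene lists were chosen with earlier results of these data known. Named are the 10 genes, Cebpa, for each experiment up to 8 of the 61 pathway genes with the largest fold change among those called without overlap and averaging 1 CPM or more, the 3 genes nearest to Nqo1 and Hmox1, and the most abundant gene of each marker list. A marker said to lead its list was the most abundant over all 30 libraries. Bach1, Mafg, Pgd, Gpx2, Gsta3, Sox9, Krt19, Krt7, Timd4, Marco, S100a8, Csf3r, Hba-a1, Alas2, Cftr and Trem2 were named after their values were seen.

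A gene at 3 counts or fewer in each library of a group was at the floor. Counts limit precision by counting error, and intervals are 95%. The alternatives were no low-count filter, upper quartile normalization, DESeq2 1.42.0, limma 3.58.1 on log2(authors' CPM + 1), a joint fit, the replicate number as a block, stricter calls and each mouse left out. Scaling to library totals was added after seeing the data. The steps were tested on simulated data. One marker of the cholangiocyte list is not reported here and was left out of its sums.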

Additional observations from a re-analysis of the deposited data

Results flagged for a closer look

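In groups of 5 mice, a mouse was singled out by its gap to the nearest other in log2 CPM, divided by the range of the group. The ratio had to be above Dixon's critical value of 0.71. Chance flags about 1 in 20 groups, and 2 mice were found over the 6 groups of the 9 tested genes, which is no more than chance would flag. For Nqo1, knockout replicate 1 of HFCFD8W+T10D was the lowest of its group at 23.04 CPM, and knockout replicate 1 of HFCFD12W+T10W was the highest of its group at 21.3 CPM.

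The genotype effect on 5 genes differed between experiments in the fit of all 30 libraries. For HFCFD8W+T10D minus HFCFD2W the difference of log2 fold changes was 1.16 for Nfe2l2, 2.53 for Nqo1, 1.25 for Srxn1 and 1.25 for G6pdx. For HFCFD12W+T10W minus HFCFD2W it was 1.298 for Nfe2l2, 1.16 for Nqo1, 1.33 for Srxn1 and 1.21 for G6pdx. For HFCFD12W+T10W minus HFCFD8W+T10D it was -1.37 for Nqo1 and -0.49 for Gclm. Nfe2l2 was below all fl/fl mice in every Cebpa ΔHep mouse of HFCFD2W and above all fl/fl mice in every Cebpa ΔHep,ERT2 mouse of HFCFD12W+T10W.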

How the results depend on the processing

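The calls of Nqo1, Srxn1 and G6pdx in both inducible experiments, and of Nfe2l2 in HFCFD2W and HFCFD12W+T10W, kept their direction and their side of an adjusted p of 0.05 under every alternative and without any mouse. At an adjusted p under 0.01, Nfe2l2 in HFCFD8W+T10D lost its call. Scaling to library totals called 9 of the genes higher in HFCFD12W+T10W, with Gclm at 0.19, 38 higher and 6 lower of the pathway genes, and 7049 higher and 962 lower of all genes; in HFCFD8W+T10D it called 2023 and 382 of all genes, against 1231 and 821. It called 4 and 1 of the genes higher in the fl/fl comparisons and 1 lower between the inducible experiments, as did upper quartile normalization. Beyond these, limma called 1 gene higher in HFCFD2W (Txnrd1), and both limma and DESeq2 called 1 lower in HFCFD12W+T10W (Gclm). DESeq2 called 2 pathway genes lower in HFCFD8W+T10D. The joint fit called 5 pathway genes lower and 1976 higher and 1541 lower of all genes there. Gclc turned to -0.0404 with limma and -0.0179 with the replicate block in HFCFD8W+T10D, and to -0.00356 with DESeq2, -0.0529 with limma and -0.0200 with the joint fit in HFCFD12W+T10W. The cause was not tested. An adjusted p under 0.01 left 404 higher and 361 lower genes and 2 lower pathway genes in HFCFD2W, and 423 and 341 genes in HFCFD8W+T10D. A fold over 2 left, as higher and lower, 187 and 153 of all genes, 5 and 0 pathway genes and 0 lower of the 10 in HFCFD2W, then 490 and 241 genes and 12 and 0 pathway genes in HFCFD8W+T10D, then 1777 and 433 genes, 12 and 2 pathway genes and 2 higher of the 10 in HFCFD12W+T10W.

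Replicate numbers were not shown to pair mice, with same-number correlations of -0.33 to 0.05, -0.08 to 0.17 and -0.10 to 0.20 in the 3 experiments. Such correlations cannot show that the mice were unpaired. The fit with the replicate block kept only replicate numbers present in both genotypes, which left 4 pairs in HFCFD2W, so mice were lost there too. With the replicate block, HFCFD2W had 376 higher and 349 lower genes, against 952 and 895, and 5 higher and 1 lower pathway genes, against 8 and 5. The block changed no call of the 10 genes. Over fits without 1 mouse, higher genes in HFCFD8W+T10D ran from 791 (without fl/fl replicate 4) to 1486, its lower pathway genes from 1 to 3, genes of the 10 higher in HFCFD2W and lower in HFCFD12W+T10W from 0 to 1, and those lower between the inducible experiments from 1 to 2. The log2 fold change ran from -0.0559 to 0.322 for G6pdx in HFCFD2W and for Gclc from -0.15 to 0.17 in HFCFD8W+T10D and from -0.12 to 0.10 in HFCFD12W+T10W. Passing without 1 mouse were Txnrd1 in HFCFD2W (edgeR adjusted p = 0.04996, without knockout replicate 4) and HFCFD8W+T10D (0.0475, without knockout replicate 4) and Gclm in HFCFD12W+T10W (0.0458, without knockout replicate 1). With upper quartile normalization Keap1 and Txnrd1 passed in HFCFD12W+T10W, at edgeR adjusted p-values of 0.0236 and 0.0246. In HFCFD8W+T10D Hmox1 passed with no low-count filter (0.0494) and in the joint fit (0.0288), in which Gclm passed too (0.0408). Depth limits Slc7a11, with at most 19 counts in a library.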
